A study of Mus musculus with 10 samples.

Results

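T cells of the small intestine lie in the epithelium and the lamina propria, and 34 genes that mark the T lineage were examined in the terminal ileum of mice after repeated mild social defeat. The list was set by name and holds the chains of the T cell receptor complex, the coreceptors, receptor signalling proteins, surface and costimulatory receptors and T lineage transcription factors. On the array 32 of the 34 had a probe set annotated with that gene alone, out of 18193 genes with such a probe set. Lck and Tcf7 had none and were not analysed here. Where a gene had several probe sets, the one brightest on average across the 10 mice was read. The mean of 20 members lay above an expression floor of 4.15 on the log2 scale, below which the lowest 40 percent of probe sets fell, and 12 lay under it. The members closest to that floor were Cd247 at 4.16 just inside and Cd28 at 4.10 just outside.

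The samples came from 5 stressed and 5 control male C57BL/6JJmsSlc mice, 7 weeks old, with 1 Affymetrix array per mouse. A stressed mouse met an aggressive older male ICR mouse once a day, with 5 min of physical contact on day 1 and 0.5 min less each day, down to 0.5 min on day 10. Control mice were not stressed, and both groups were fed the AIN-93G diet and fasted for 3 h before the lower small intestine was taken. The samples were whole tissue, so fewer T cells and less transcript per T cell cannot be told apart.

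A T cell recognises antigen through a receptor whose variable chains are carried to the surface and coupled to signalling by the CD3 and zeta chains. CD4 or CD8 binds the presenting MHC molecule and brings the kinase LCK, which phosphorylates the CD3 chains so that ZAP-70 docks and marks the adaptors LAT and SLP-76. In the gut many T cells sit between epithelial cells as intraepithelial lymphocytes, held by the integrin CD103, and a large share of them carry CD8 or a gamma delta receptor.

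A pair of libraries stood apart in tissue markers. Control mouse 1 had Fabp6, the ileal bile acid binding protein, at 7.88 where the other 9 mice were at 13.88 to 14.10, and Car1, a carbonic anhydrase of the large intestine, at 14.17. Its array correlated with the others at 0.918 to 0.947 across genes, where the other 9 correlated at 0.975 to 0.995. Stressed mouse 4 had ileal Fabp6 at 13.95 and Car1 at 13.32, against 4.95 to 7.41 in the other 8 mice. Results are therefore given for all 10 mice and without control mouse 1, and the main counts also without both of these mice.

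The T lineage genes were at lower levels in stressed than in control mice in most members. Over all 10 mice 28 of the 32 were lower in stressed mice, where 53.6% of all 18193 genes were, and without control mouse 1 again 28 were, where 50.2% of genes were. Among the 20 members above the floor 16 were lower (49.1% of 13666 genes) and 17 without control mouse 1 (43.8%). The median difference of these 20 was -0.16 with 10 mice and -0.23 without control mouse 1, beside medians of 0.00 and 0.03 over all genes tested. Cd247 and Cd5 are among the 16 and the 17 and in these medians. They passed the floor only through the control mice, so they could only count as lower. The counts over the 32 members do not use the floor. The shifts of the members were small, and the decision for single genes depended on control mouse 1.

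In limma with Benjamini-Hochberg adjustment over all genes, 0 of the 20 members passed an adjusted p under 0.05 in either direction with 10 mice, where 0% of genes were called lower and 0% higher. Without control mouse 1 only Cd7 of the 20 was called lower, beside 0.534% of genes called lower, and 0 members were called higher, beside 0.263%. At an unadjusted p under 0.05, 6 of 20 members were lower with 10 mice (3.96% of genes) and 11 of 20 without control mouse 1 (6.56%), and 0 were higher in either comparison (3.86% and 11.4% of genes). Without control mouse 1 and stressed mouse 4, 9 of 20 were lower at that level (5.11% of genes) and 0 were called (0.0439% of genes called lower). Cd247 and Cd5 were 2 of the 11 members and were also among the 9. Their means were under the floor in stressed mice (4.02 and 4.03), and they passed it through the control mice (4.31 and 4.42). With no floor, 0 of 32 were called in either comparison (0% and 0.352% of genes called lower), and 10 of 32 and 15 of 32 were lower at an unadjusted p under 0.05 (4.47% and 7.32%).

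Every stressed mouse lay below every control mouse for Cd3d, Cd3g, Cd7 and Itgae, 4 of the 20 members above the floor, where 1.12% of genes did so. Without control mouse 1 Cd3e and Lat joined them, which made 6 of 20, beside 2.72% of genes. Below the floor Sh2d1a and Cd28 also separated the groups, so the counts over the 32 members were 6 with 10 mice and 8 without control mouse 1, beside 1.15% and 2.81% of 18193 genes.

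**Figure D1:**
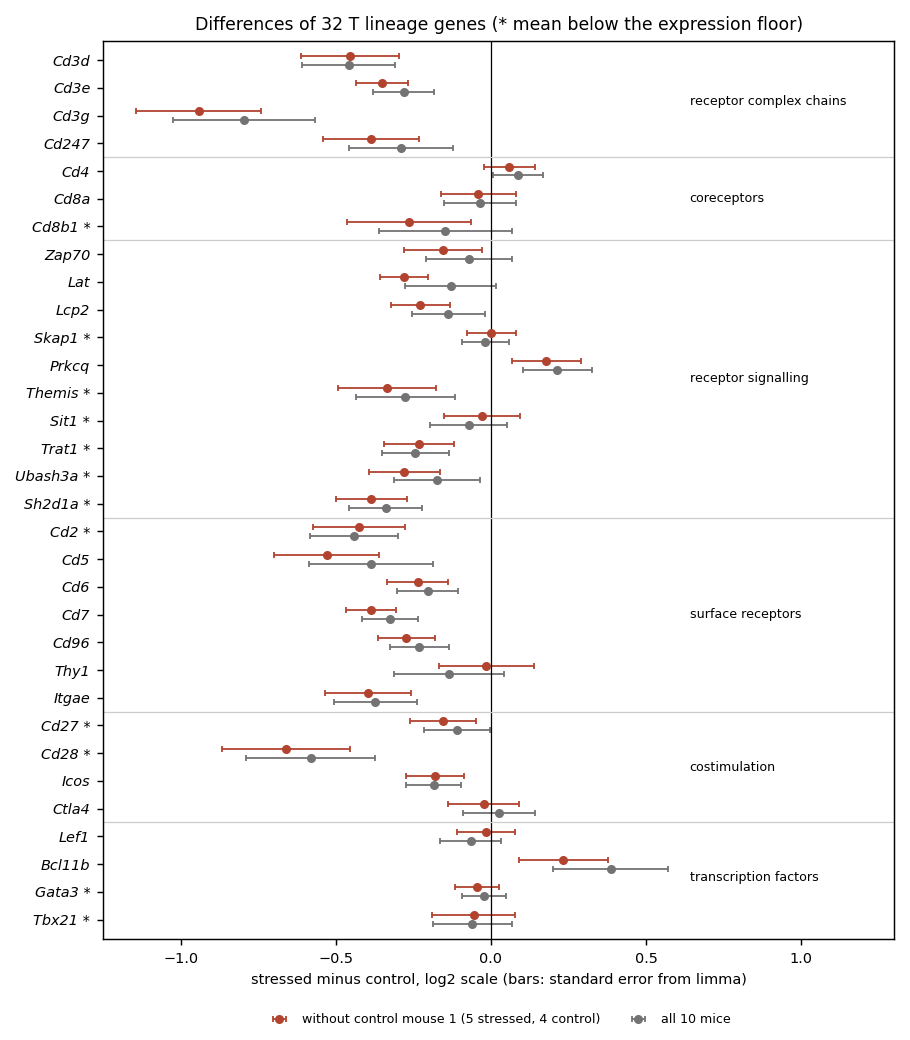
Difference between stressed and control mice on the log2 scale for the 32 genes, ordered by role, with all 10 mice (grey) and without control mouse 1 (red). Bars are standard errors from the fit with no floor, and an asterisk marks a mean below the floor of 4.15. Most points lie left of 0, Cd3g is farthest left, and Bcl11b and Prkcq lie to the right in both comparisons.

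The 4 chains of the receptor complex were all lower in stressed mice, and Cd3d and Cd3g separated the groups in both comparisons. Cd3g, the gamma chain of CD3, was at 5.21, 5.37, 5.27, 5.42 and 4.98 in stressed mice 1 to 5, against 5.46, 6.87, 6.31, 5.94 and 5.64 in control mice 1 to 5. All 5 stressed mice lay below all 5 control mice, and the highest values were those of control mice 2 and 3. Cd3g averaged 5.25 ± 0.17 (SD, n = 5) in stressed mice and 6.19 ± 0.53 (SD, n = 4) in control mice 2 to 5, a level 1.92-fold lower. The difference without control mouse 1 was -0.94 ± 0.20 (SE, limma adjusted p = 0.0577), and with 10 mice -0.80 ± 0.23 (SE, limma adjusted p = 0.408). When control mouse 5 was left out as well, the difference was -1.13 with a limma adjusted p of 0.0266, past the threshold. Cd3g was not called when any other mouse was left out in addition. Over the 15 alternative settings without control mouse 1, its difference was -1.13 to -0.71, with limma adjusted p of 0.0266 to 0.132.

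Cd3d, the delta chain, was at 5.55, 5.55, 5.63, 5.67 and 5.66 in stressed mice 1 to 5, against 6.09, 6.65, 6.10, 5.75 and 5.76 in control mice 1 to 5. The stressed mice lay close together and all below the lowest control, and control mouse 2 was again highest. Cd3e, the epsilon chain, was at 5.67, 5.77, 5.56, 5.69 and 5.60 in stressed mice 1 to 5, against 5.65, 6.00, 6.20, 5.90 and 5.94 in control mice 1 to 5. Only control mouse 1 lay within the stressed range. Leaving out control mouse 2 as well brought the Cd3d difference to -0.26. The differences without control mouse 1 alone were -0.45 ± 0.16 for Cd3d and -0.35 ± 0.08 for Cd3e (SE, limma adjusted p = 0.172 and 0.0636), and with 10 mice -0.46 ± 0.15 and -0.28 ± 0.10 (SE, limma adjusted p = 0.467 and 0.497).

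Cd247, the zeta chain that carries most of the signalling motifs of the complex, was at 3.92, 3.73, 4.04, 4.06 and 4.33 in stressed mice 1 to 5, against 3.92, 4.76, 4.61, 4.06 and 4.18 in control mice 1 to 5. The groups overlapped, with control mice 2 and 3 above every stressed mouse. Its difference was -0.39 ± 0.15 (SE) without control mouse 1. Cd247 passed the floor only through the control mice, with a mean of 4.02 in stressed and 4.31 in control mice. No adjusted p is therefore given for it. Of its 3 other probe sets, all below the floor, 2 were also lower in stressed mice and 1 was higher.

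Cd3g, Cd3d and Cd3e are neighbours in the RefSeq annotation of GRCm38.p6, with 0 protein-coding genes between them. Their upstream sequences are shown with that of Lat because these 4 are the members above the floor that separated the groups without control mouse 1 and have an entry in the promoter table used (Cd7 and Itgae have none there). Each is the 250 bases before the annotated start, 5′ to 3′ on the gene's strand, from RefSeq on GRCm38.p6, and capitals mark AGGAAG or its reverse complement CTTCCT, a core of sites for ETS family factors:
Cd3g, chr9:44980432-44980681, strand minus: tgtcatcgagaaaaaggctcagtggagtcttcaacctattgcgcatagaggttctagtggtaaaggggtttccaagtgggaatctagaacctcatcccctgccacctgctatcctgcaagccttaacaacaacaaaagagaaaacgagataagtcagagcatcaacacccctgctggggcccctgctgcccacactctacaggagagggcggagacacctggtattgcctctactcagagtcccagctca
Cd3d, chr9:44981536-44981785, strand plus: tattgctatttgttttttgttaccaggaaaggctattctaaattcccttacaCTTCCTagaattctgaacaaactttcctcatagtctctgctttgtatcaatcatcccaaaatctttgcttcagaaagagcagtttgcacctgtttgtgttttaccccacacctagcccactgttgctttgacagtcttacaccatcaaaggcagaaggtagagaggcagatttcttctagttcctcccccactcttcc
Cd3e, chr9:45009612-45009861, strand minus: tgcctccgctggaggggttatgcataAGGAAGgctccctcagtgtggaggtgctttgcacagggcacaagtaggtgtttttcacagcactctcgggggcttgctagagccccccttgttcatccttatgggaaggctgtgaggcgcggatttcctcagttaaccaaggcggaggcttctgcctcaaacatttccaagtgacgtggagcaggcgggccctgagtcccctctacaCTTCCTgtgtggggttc
Lat, chr7:126369569-126369818, strand minus: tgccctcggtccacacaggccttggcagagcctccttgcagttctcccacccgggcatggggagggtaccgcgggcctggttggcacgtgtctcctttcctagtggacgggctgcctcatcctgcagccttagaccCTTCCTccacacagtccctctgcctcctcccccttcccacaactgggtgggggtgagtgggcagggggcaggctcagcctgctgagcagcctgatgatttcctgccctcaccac

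Searched on both strands, these letters occurred at 1 place upstream of Cd3d and of Lat, at 2 places upstream of Cd3e and at 0 upstream of Cd3g. They were in 15 of the 31 upstream windows listed for 23 of the 34 genes (48.4%) and in 29.5% of all 32851 windows of that length. TGTGGT, a core for RUNX factors, was in 12.9% of member windows and 14.0% of all windows. For AGATAA, bound by GATA factors, the shares were 6.45% and 9.99%. The E-box CAGCTG was in 12.9% and 13.0%. For TATAAA, of the TATA box, the shares were 12.9% and 12.4%. CTTTGA, a core for TCF and LEF factors, was in 22.6% of member windows and 13.8% of all windows. Each motif was counted on its own, windows of the same gene can overlap, and a match in letters is a description, not a binding site.

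The coreceptors did not separate the groups in the probe sets chosen. Cd4, which binds MHC class II, was at 5.95, 5.83, 5.71, 5.73 and 5.84 in stressed mice 1 to 5, against 5.61, 5.63, 5.84, 5.83 and 5.71 in control mice 1 to 5. The ranges overlapped and the difference was 0.09 ± 0.08 with 10 mice (SE, limma adjusted p = 0.820). Cd8a, the alpha chain of CD8, was at 5.57, 5.20, 5.52, 5.47 and 5.75 in stressed mice 1 to 5, against 5.52, 5.35, 5.77, 5.65 and 5.40 in control mice 1 to 5, with overlapping ranges and a difference of -0.04 ± 0.12 in either comparison (SE, limma adjusted p = 0.959 and 0.882). Cd8b1, the beta chain, lay below the floor at 2.23, 2.13, 2.12, 2.58 and 2.35 in stressed mice 1 to 5, against 1.96, 3.32, 2.33, 2.28 and 2.26 in control mice 1 to 5. Control mouse 2 stood out and the other control mice were within or below the stressed range.

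**Figure D2:**
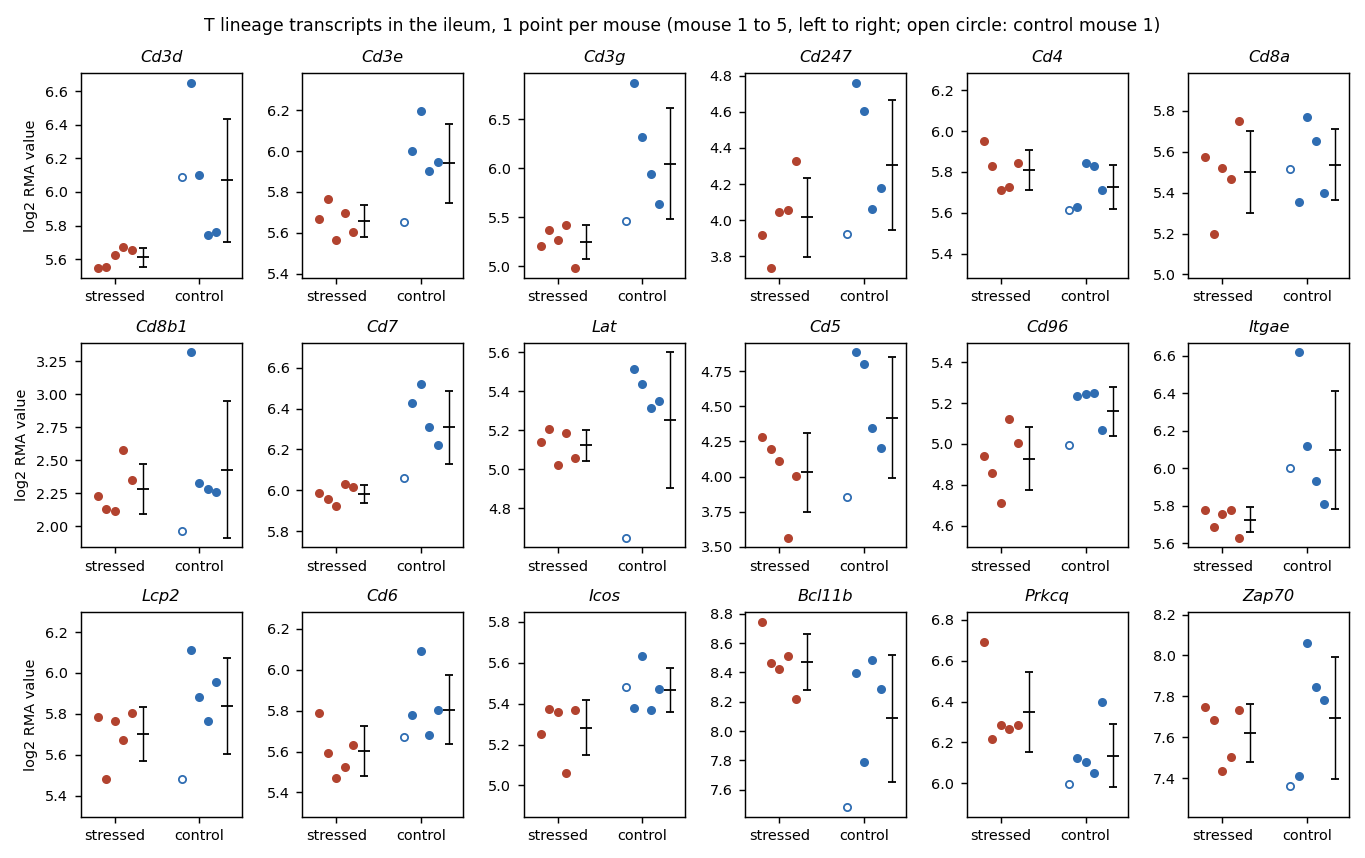
RMA value on the log2 scale (vertical axis) of 18 T lineage genes in each mouse, stressed mice in red and control mice in blue, with control mouse 1 as an open circle and the mean ± SD of each group of 5 in black. Cd3d, Cd3g, Cd7 and Itgae have all stressed mice below all control mice, and control mouse 2 is the highest point for Cd3d, Cd3g, Cd247, Cd8b1, Lat, Lcp2, Cd5 and Itgae.

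Other probe sets of Cd8a gave larger differences than the one with the highest mean. The array holds 5 for Cd8a, of which 3 passed the floor. The probe set with the highest mean, whose name ends in x_at and so may take up related sequences, was the flattest. The third by mean was at 4.03, 3.82, 3.94, 3.89 and 3.94 in stressed mice 1 to 5, against 4.27, 5.18, 4.85, 4.60 and 3.98 in control mice 1 to 5. Control mice 1 to 4 lay above every stressed mouse, and control mouse 5 lay within their range. The differences of the 5 probe sets without control mouse 1 were -0.04, -0.36, -0.73, -0.78 and -0.32, in order of falling mean. These lower probe sets are shown because of their values, and the third passed the floor only through the control mice, with a mean of 3.92 in stressed and 4.58 in control mice, so no test is given for it.

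Zap70, the kinase that docks on phosphorylated CD3 chains, showed the same divergence. Its probe set with the highest mean was at 7.75, 7.69, 7.44, 7.50 and 7.74 in stressed mice 1 to 5, against 7.36, 7.41, 8.06, 7.85 and 7.78 in control mice 1 to 5, with overlapping groups and a difference of -0.15 ± 0.12 without control mouse 1 (SE, limma adjusted p = 0.539). The second of its probe sets, whose name ends in x_at, had means above the floor in both groups, 4.55 in stressed and 4.78 in control mice. It differed by -0.23 with 10 mice and -0.31 without control mouse 1, where all stressed mice lay below all control mice. Control mouse 1 lay within the stressed range. The third of its probe sets ranged from 3.99 to 4.23 in stressed mice and from 4.31 to 5.12 in control mice, so that all stressed mice lay below all control mice. Its difference was -0.51 with 10 mice and -0.54 without control mouse 1. It too was picked for its values and passed the floor only through the control mice, with a mean of 4.09 in stressed and 4.60 in control mice.

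The signalling adaptors Lat and Lcp2 act downstream of ZAP-70. Lat, the membrane adaptor on which the signalling complex assembles, was at 5.14, 5.21, 5.02, 5.19 and 5.06 in stressed mice 1 to 5, against 4.65, 5.52, 5.44, 5.31 and 5.35 in control mice 1 to 5. Apart from control mouse 1, the lowest of all mice, control mice lay above every stressed mouse. Its difference was -0.28 ± 0.07 without that mouse (SE, limma adjusted p = 0.0939) and -0.13 ± 0.15 with it (SE, limma adjusted p = 0.864). Lcp2, which encodes SLP-76, was at 5.78, 5.48, 5.76, 5.67 and 5.80 in stressed mice 1 to 5, against 5.48, 6.11, 5.88, 5.76 and 5.96 in control mice 1 to 5, and the groups overlapped. Its difference without control mouse 1 was -0.23 ± 0.09 (SE, limma adjusted p = 0.234).

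Prkcq, the protein kinase C theta of the T cell synapse, ran the other way. It was at 6.69, 6.22, 6.28, 6.27 and 6.28 in stressed mice 1 to 5, against 5.99, 6.12, 6.11, 6.05 and 6.40 in control mice 1 to 5. Stressed mouse 1 was highest, and control mouse 5 lay above the other 4 stressed mice. The difference was 0.21 ± 0.11 with 10 mice (SE, limma adjusted p = 0.700) and 0.18 ± 0.11 without control mouse 1 (SE, limma adjusted p = 0.418), and 0.13 without stressed mouse 1.

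The 6 other signalling members with a probe set all lay below the floor. The differences without control mouse 1 were -0.39 for Sh2d1a, the adaptor SAP of SLAM receptors, -0.34 for Themis, a regulator of thymocyte selection, and -0.28 for Ubash3a, a phosphatase family protein that restrains receptor signalling. Trat1, an adaptor of the receptor complex, differed by -0.23, Sit1, an inhibitory adaptor, by -0.03, and Skap1, an adaptor for integrin activation, by 0.00. Sh2d1a ranged from 1.58 to 1.92 in stressed mice and from 1.94 to 2.53 in control mice, so the groups did not overlap.

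Cd7, a surface receptor of T and natural killer cells, was the member that passed the threshold. It was at 5.99, 5.96, 5.92, 6.03 and 6.02 in stressed mice 1 to 5, against 6.06, 6.43, 6.52, 6.31 and 6.22 in control mice 1 to 5. The stressed mice lay close together, all below the lowest control, which was control mouse 1. Cd7 averaged 5.98 ± 0.04 (SD, n = 5) in stressed mice and 6.37 ± 0.13 (SD, n = 4) in control mice 2 to 5. Without control mouse 1 it fell by 0.39 ± 0.08 (SE, limma adjusted p = 0.0459), to a level 1.31-fold lower. With 10 mice it differed by -0.33 ± 0.09 (SE, limma adjusted p = 0.385). The call ended when any of control mice 2, 3 and 4 or any stressed mouse was left out in addition, with differences of -0.41 to -0.34 and limma adjusted p of 0.0662 to 0.111. It also missed the threshold with no floor (limma adjusted p = 0.0602) and with the replicate block (limma adjusted p = 0.127), and it held without control mouse 5 (limma adjusted p = 0.0421).

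Itgae, the alpha E integrin chain CD103 that binds E-cadherin on epithelial cells, was at 5.78, 5.68, 5.76, 5.78 and 5.63 in stressed mice 1 to 5, against 6.00, 6.62, 6.12, 5.93 and 5.81 in control mice 1 to 5. All stressed mice were below all control mice, although control mouse 5 was only just above the highest stressed mouse. The difference was -0.37 ± 0.13 with 10 mice (SE, limma adjusted p = 0.520) and -0.40 ± 0.14 without control mouse 1 (SE, limma adjusted p = 0.172), and -0.23 without control mice 1 and 2. Its second probe set differed by -0.38 and -0.44 in the same comparisons, with control mice 1 and 5 inside the stressed range.

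Cd5 and Cd6, neighbouring genes for related scavenger-type receptors that tune T cell receptor signals, were lower in overlapping groups. Cd5 was at 4.28, 4.20, 4.11, 3.56 and 4.01 in stressed mice 1 to 5, against 3.85, 4.89, 4.80, 4.35 and 4.20 in control mice 1 to 5, where control mice 2, 3 and 4 lay above every stressed mouse. Cd6 was at 5.79, 5.59, 5.47, 5.52 and 5.63 in stressed mice 1 to 5, against 5.67, 5.78, 6.09, 5.68 and 5.80 in control mice 1 to 5, where control mice 3 and 5 lay above every stressed mouse. The differences without control mouse 1 were -0.53 ± 0.17 (SE) for Cd5 and -0.24 ± 0.10 for Cd6 (SE, limma adjusted p = 0.234). Cd6 differed by -0.15 without control mice 1 and 3. Cd5 passed the floor only through the control mice, with a mean of 4.03 in stressed and 4.42 in control mice. No adjusted p is therefore given for it.

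Cd96, a receptor of T and natural killer cells for nectin-like ligands, was at 4.94, 4.86, 4.71, 5.12 and 5.00 in stressed mice 1 to 5, against 4.99, 5.24, 5.24, 5.25 and 5.07 in control mice 1 to 5. Control mice 2, 3 and 4 lay above every stressed mouse, and control mice 1 and 5 lay within the stressed range. Its difference without control mouse 1 was -0.27 ± 0.09 (SE, limma adjusted p = 0.158). Cd2, an adhesion receptor, lay below the floor at 2.72 to 3.35 in stressed mice and 3.01 to 3.64 in control mice. Thy1, a surface glycoprotein that mouse T cells share with neurons and stromal cells, did not go with them. It ranged from 5.69 to 6.49 in stressed mice and from 5.92 to 6.65 in control mice, with a difference of -0.02 ± 0.15 without control mouse 1 (SE, limma adjusted p = 0.968). The highest Thy1 values were in stressed mice 1 and 4 and control mouse 1. The mean of 7 enteric neuron genes was also highest in these mice, at 6.95 and 6.61 in stressed mice 1 and 4 and 7.02 in control mouse 1, against 6.03 to 6.48 in the others. The part of neurons in Thy1 was not tested.

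The costimulatory receptors Cd28, Ctla4 and Icos are neighbouring genes and gave different patterns. Cd28, which provides the second signal for T cell activation, was at 3.81, 3.74, 3.76, 3.81 and 3.95 in stressed mice 1 to 5, against 4.08, 5.33, 4.22, 4.14 and 4.20 in control mice 1 to 5. All stressed mice were below all control mice, and control mouse 2 stood far above the other controls. Cd28 is given by mouse because of these values. Its difference was -0.58 with 10 mice and -0.66 without control mouse 1, below the floor and so outside the main test. In the fit with no floor its limma adjusted p without control mouse 1 was 0.155. The second Cd28 probe set, also below the floor, differed by -0.58 and -0.75 in the same comparisons, but the groups overlapped. There stressed mice 3 and 4 were at 3.80 and 3.74, and control mice 1, 3 and 4 at 3.37, 3.80 and 3.77. Ctla4, the inhibitory receptor for the same ligands, ranged from 3.96 to 4.41 in stressed mice and from 3.97 to 4.44 in control mice, with differences of 0.03 ± 0.12 with 10 mice and -0.02 ± 0.11 without control mouse 1 (SE, limma adjusted p = 0.970 and 0.933).

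Icos, a costimulator of follicular helper and regulatory T cells, was at 5.25, 5.37, 5.36, 5.06 and 5.37 in stressed mice 1 to 5, against 5.48, 5.38, 5.63, 5.37 and 5.47 in control mice 1 to 5, with overlapping groups. Its difference was -0.18 ± 0.09 in either comparison (SE, limma adjusted p = 0.641 with 10 mice and 0.319 without control mouse 1). A second probe set above the floor was at 4.74, 4.60, 4.46, 4.56 and 4.73 in stressed mice 1 to 5, against 4.44, 5.34, 5.27, 5.35 and 5.17 in control mice 1 to 5. There control mice 2 to 5 all lay above every stressed mouse, and control mouse 1 lay below them all. In a test of each of 23541 probe sets on its own, chosen after these values were seen, this probe set fell by 0.66 ± 0.08 without control mouse 1 (SE, limma adjusted p = 0.0253), where 64 probe sets in all were called. With 10 mice it differed by -0.49 (limma adjusted p = 0.515). Cd27, a costimulator of the TNF receptor family, was at 2.33 or less in every mouse.

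**Figure D3:**
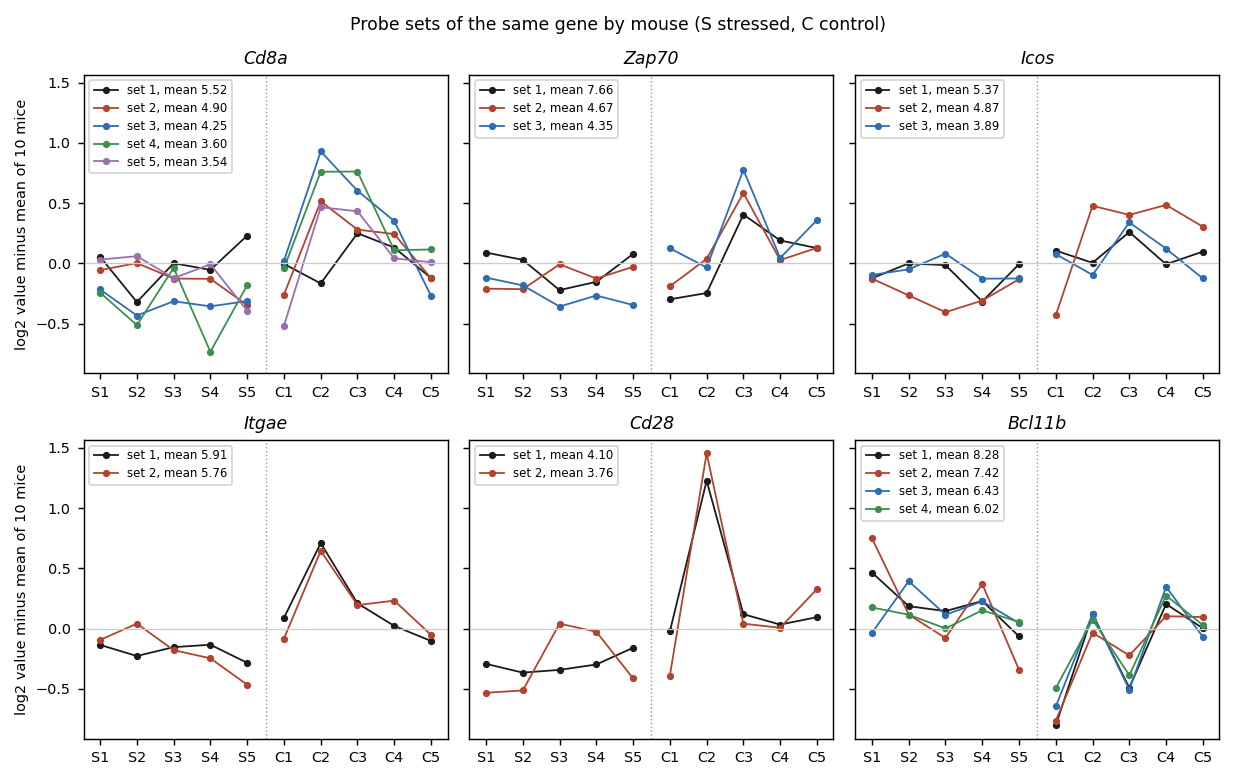
Deviation from the mean of the 10 mice, on the log2 scale, for each probe set of 6 genes, with stressed mice (S1 to S5) left of the dotted line and control mice (C1 to C5) right of it. Legends number the probe sets of a gene in order of falling mean. For Cd8a and Zap70 the first probe set is flatter across the groups than the lower ones, and for Icos it is flatter than the second. The Itgae probe sets follow similar courses. Those of Cd28 share a peak in control mouse 2 and those of Bcl11b a low in control mouse 1, and both differ in other mice.

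Over all 58 probe sets annotated to the 32 genes, 49 were lower in stressed mice with 10 mice and 49 without control mouse 1, and 29 passed the floor. Counted by gene, not by probe set, 53.6% and 50.2% of all 18193 genes were lower in these comparisons. Of the 14 members with several probe sets, 3 had differences of both signs with 10 mice and 4 without control mouse 1.

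Of the 4 lineage transcription factors on the array, 3 were slightly lower in stressed mice in both comparisons and Bcl11b was at higher levels. Bcl11b, a factor for T cell commitment that other cells also express, was at 8.75, 8.47, 8.43, 8.51 and 8.22 in stressed mice 1 to 5, against 7.48, 8.40, 7.79, 8.48 and 8.28 in control mice 1 to 5. The groups overlapped, with control mice 1 and 3 lowest. The difference was 0.39 ± 0.19 with 10 mice (SE, limma adjusted p = 0.661) and 0.23 ± 0.14 without control mouse 1 (SE, limma adjusted p = 0.412), and all 4 of its probe sets were higher in stressed mice in both comparisons. Leaving out control mouse 3 as well gave 0.084. Lef1, a partner of beta-catenin in T cells and in epithelium, differed by -0.015 ± 0.09 without control mouse 1 (SE, limma adjusted p = 0.949). Gata3 and Tbx21, the factors of type 2 and type 1 helper cells, lay below the floor and differed by -0.05 and -0.06.

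Members varied among themselves in which control mouse was high. Control mouse 2 was the highest of the 10 mice for 12 of the 32 genes and control mouse 3 for 9, against 3 for stressed mouse 1, 1 for stressed mouse 5 and 0 for stressed mice 2, 3 and 4. Control mouse 1 was the lowest for 8. The mean of the 20 members above the floor was 5.66, 5.53, 5.49, 5.53 and 5.55 in stressed mice 1 to 5, against 5.52, 5.88, 5.86, 5.69 and 5.66 in control mice 1 to 5, so that control mouse 1 lay among the stressed mice. This mean includes Cd247 and Cd5, which passed the floor only through the control mice. The SD was larger among control than among stressed mice for 24 of 32 members (75% of all genes), and for 24 again without control mouse 1 (57.7% of all genes).

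**Figure D4:**
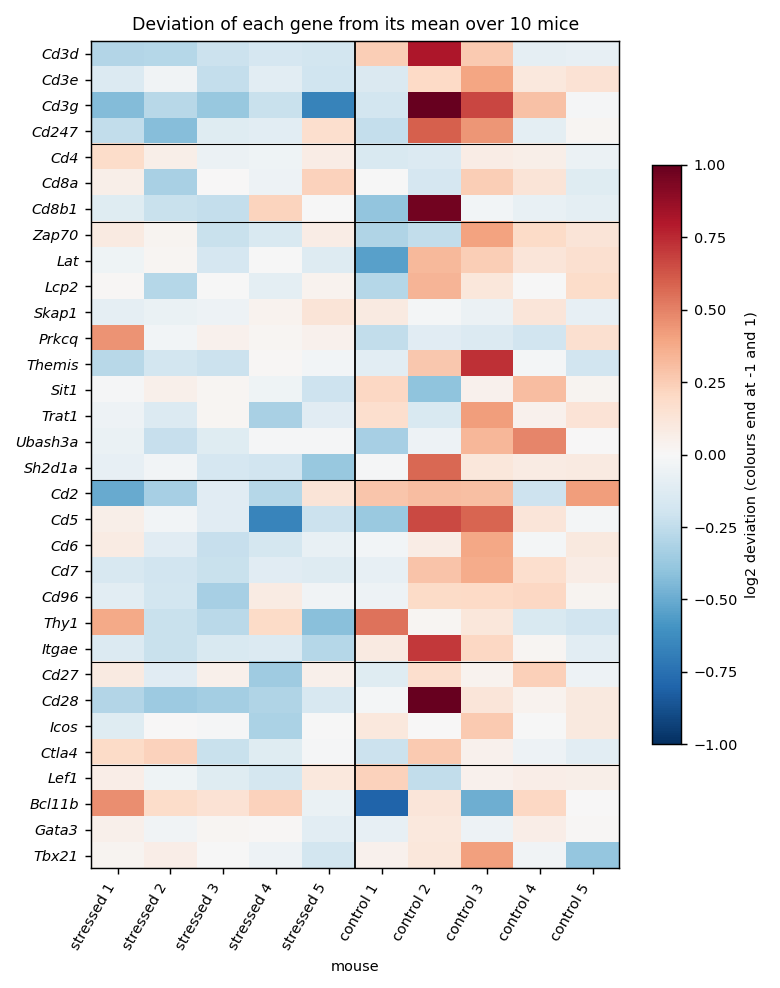
Deviation of each of the 32 genes from its mean over the 10 mice, on the log2 scale, with stressed mice in the left columns, control mice in the right columns, and genes grouped by role. Control mice 2 and 3 hold most of the strong red cells, and the strongest red cells of the stressed columns are Bcl11b, Prkcq and Thy1 in stressed mouse 1.

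Other genes of the T cell receptor pathway were read from lists set by name. Of 10 receptor locus segments on the array 6 lay above the floor, and all 6 were lower in both comparisons (49.1% and 43.8% of all genes). At an unadjusted p under 0.05, 3 of them were lower with 10 mice (3.96% of all genes) and 4 without control mouse 1 (6.56%). Below the floor Tcra, Trav12n-1 and Trav13-5 were higher in both comparisons, by 0.06 to 0.13 with 10 mice, and Trav6-3 was lower. Trav9d-3, a variable segment of the alpha chain whose probe set may take up related segments, was at 6.07, 6.17, 6.01, 6.05 and 6.00 in stressed mice 1 to 5, against 6.06, 7.18, 6.75, 6.67 and 6.52 in control mice 1 to 5. Control mice 2 to 5 lay above every stressed mouse, and control mouse 1 lay among them. It fell by 0.72 ± 0.12 without control mouse 1 (SE, limma adjusted p = 0.0270), the 1 segment called, and differed by -0.57 with 10 mice (limma adjusted p = 0.408). Of all genes 0.534% were called lower without control mouse 1 and 0% with 10 mice. Trbv1, of the beta chain, differed by -0.83 ± 0.20 (SE, limma adjusted p = 0.0746), and Trgv4, of the gamma chain, by -0.47 ± 0.16 (SE, limma adjusted p = 0.166), both without control mouse 1.

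Among 14 further surface and homing genes above the floor, of 23 listed, all 14 were lower in both comparisons (49.1% and 43.8% of all genes). Below the floor Havcr2 was higher in both comparisons, by 0.09 and 0.03, and Il2ra differed by 0.00 without control mouse 1. At an unadjusted p under 0.05, 7 of the 14 were lower with 10 mice (3.96% of all genes) and 11 without control mouse 1 (6.56%). None of the 14 passed the limma adjustment over all genes. Itgal, the alpha chain of the integrin LFA-1, had the smallest p, with a difference of -0.72 ± 0.16 (SE, limma adjusted p = 0.0636) when control mouse 1 was left out. For Selplg, the selectin ligand PSGL-1, the difference was -0.46 ± 0.11 (SE, limma adjusted p = 0.0636), and for Itgb7, the beta chain that pairs with CD103 and with the alpha 4 integrin, it was -0.44 ± 0.11 (SE, limma adjusted p = 0.0814).

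Signalling genes outside the members, many of them used by all cells, were more mixed. Of 25 above the floor, 18 were lower with 10 mice (49.1% of all genes) and 17 without control mouse 1 (43.8%). At an unadjusted p under 0.05, 4 were lower and 2 higher without control mouse 1 (6.56% and 11.4% of all genes), and 3 lower and 1 higher with 10 mice (3.96% and 3.86%). Sla, an adaptor that dampens receptor signalling, fell by 0.62 ± 0.11 without control mouse 1 (SE, limma adjusted p = 0.0301) and differed by -0.48 with 10 mice (limma adjusted p = 0.452). Ptprc, the pan-leukocyte phosphatase CD45, differed by -0.48 ± 0.14 without control mouse 1 (SE, limma adjusted p = 0.111), and Sos1, a Ras exchange factor of all cells, by 0.38 ± 0.10 (SE, limma adjusted p = 0.0939). Of 9 further transcription factors above the floor 4 were lower with 10 mice (49.1% of all genes) and 1 without control mouse 1 (43.8%). Of these, 2 were higher at an unadjusted p under 0.05 in each comparison (3.86% of all genes with 10 mice and 11.4% without control mouse 1) and 0 lower, led by Id2 at 0.48 ± 0.12 without control mouse 1 (SE, limma adjusted p = 0.0805), which epithelial cells also express.

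Markers of other immune cells were read in the same mice. The mean of 6 B cell genes above the floor, of 12 listed, ranged from 5.29 to 5.51 in stressed mice and from 5.25 to 6.83 in control mice, or from 5.59 upward without control mouse 1. All 6 were lower in both comparisons (49.1% and 43.8% of all genes), 1 of them, Cd79a, with a stressed mean under the floor. Pou2af1 was called without control mouse 1 (limma adjusted p = 0.0372), where 0.534% of all genes were called lower. The B cell mean was highest in control mouse 5, while the T cell receptor segments and the surface and homing genes were highest in control mouse 2. The mean of 4 mast cell genes, of 8 listed, ranged from 3.86 to 4.06 in stressed mice and from 4.59 to 5.72 in control mice. Of these 4, Cpa3, Mcpt1 and Mcpt2 had stressed means under the floor and passed it through the control mice, and of the 4 left out Ms4a2 and Cma1 were higher in stressed mice. The mean of 10 macrophage and dendritic cell genes ranged from 7.06 to 7.32 in stressed mice and from 7.18 to 7.55 in control mice, so the groups overlapped. All 10 were lower in stressed mice with 10 mice (49.1% of all genes) and 9 without control mouse 1 (43.8%). Their median difference was -0.17 with 10 mice and -0.21 without control mouse 1. Of these 10 genes 0 were called by limma (0% and 0.534% of all genes called lower). In each comparison 3 were lower at an unadjusted p under 0.05 (3.96% of all genes with 10 mice and 6.56% without control mouse 1).

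Natural killer cells share several members with T cells, and of 8 markers only Klrd1, which cytotoxic T cells also carry, lay above the floor, at 5.05 to 5.48 in stressed mice and 5.30 to 6.52 in control mice. Ncr1, their defining receptor, lay below it. The mean of 8 epithelial genes ranged from 12.79 to 12.89 in stressed mice and from 12.44 to 12.82 in control mice, or from 12.76 upward without control mouse 1. The mean of 8 smooth muscle genes ranged from 10.12 to 11.05 in stressed mice and from 10.34 to 11.59 in control mice. All 7 enteric neuron genes were at higher levels in stressed mice in both comparisons, where 49.1% and 43.8% of all genes were lower. Their median difference was 0.13 with 10 mice and 0.31 without control mouse 1. Of them 4 were higher at an unadjusted p under 0.05 without control mouse 1 (11.4% of all genes) and 0 with 10 mice (3.86%). By limma 0 were called (0.263% and 0% of all genes called higher). The part of these cell types in the T lineage differences was not tested.

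**Figure D5:**
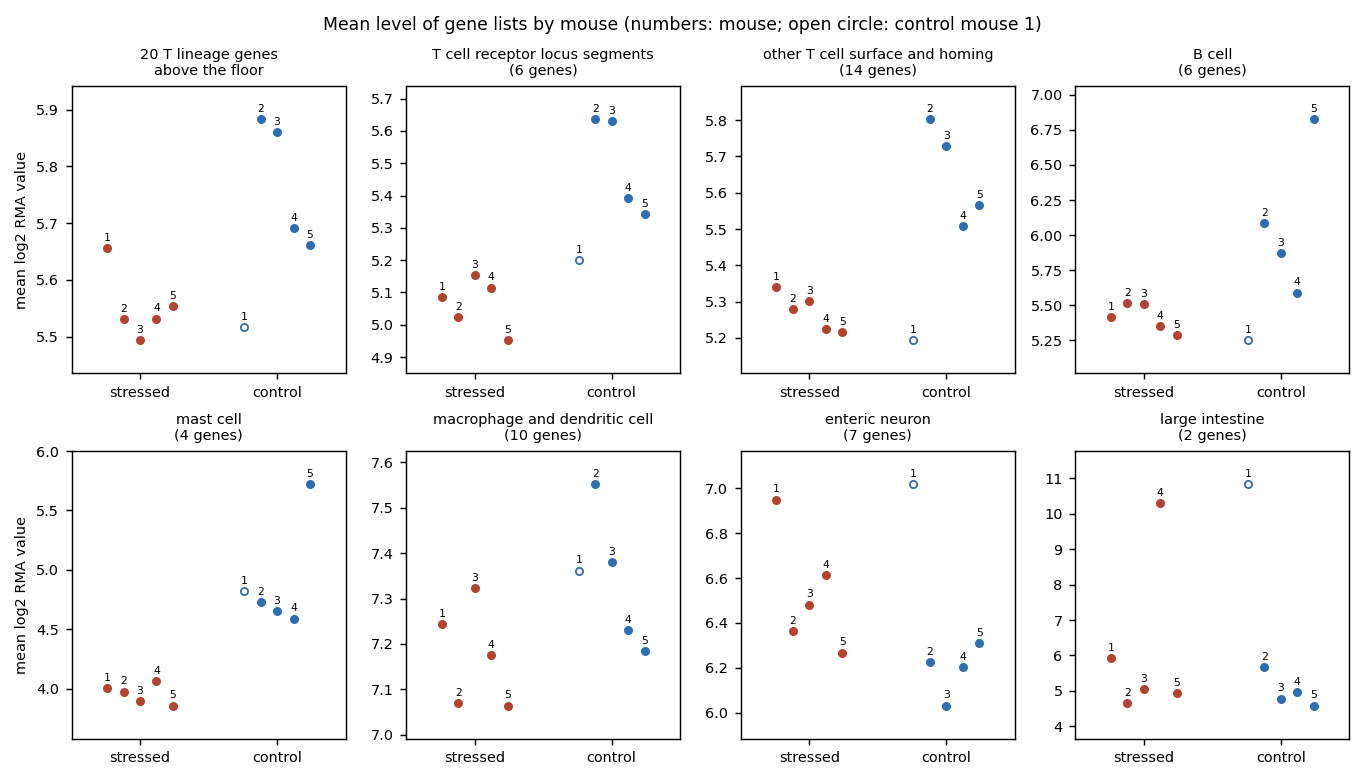
Mean value on the log2 scale of the T lineage genes above the floor and of 7 other gene lists in each mouse, stressed mice in red at the left and control mice in blue at the right, numbered by mouse, with control mouse 1 as an open circle. The T lineage panel, the receptor segment panel and the surface and homing panel peak in control mice 2 and 3, the B cell and mast cell panels in control mouse 5, and the large intestine panel sets control mouse 1 and stressed mouse 4 apart.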

How the data were processed

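Transcripts of the terminal ileum of 5 stressed and 5 control mice were measured on 1 Affymetrix 3' array per mouse, from 100 ng of RNA per the labels' protocols. The authors deposited log2 probe set values made with RMA, per the submitters' processing notes. No version of RMA is named there, and base 2 was taken from the range of the values, 1.22 to 14.37. RMA forces arrays to a common distribution, and array medians were 4.78 to 4.82. Arrays carry no read depth, and their number limits the precision.

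Of 45101 probe sets, 34945 carried 1 gene symbol in the platform annotation, 932 several and 9160 none, beside 64 manufacturer controls. Named probe sets with a mean above the floor were reduced to the highest per gene, which left 13666 genes. Stressed and control mice were compared with limma 3.58.1 in R 4.3.3 (lmFit and eBayes), with Benjamini-Hochberg adjustment over all genes and a threshold of 0.05. Differences are stressed minus control. The labels give no batch, and none was fitted. Nothing says whether mice shared a litter or cage, so p-values measure the spread between these mice. Values by mouse are given for the CD3 and zeta chains, the coreceptors, members called, and the 10 further members above the floor with the smallest p without control mouse 1. The fit was tested on simulated data.

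The members, the gene lists and the choice to leave out control mouse 1 were made with earlier results of these data known. Alternatives were other floors, the replicate number as a block, array weights, a variance prior with trend, the mean of a gene's probe sets, each mouse left out in turn, and, added after seeing the data, each probe set on its own.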

Additional observations from a re-analysis of the deposited data

Results flagged for a closer look

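Within the groups of 5 mice, 6 single values of T lineage genes lay far from the rest (the gap to the nearest mouse over the range of the group passed Dixon's critical value), of 64 groups examined, and chance gives such a value in about 1 of 20 groups. Stressed mouse 1 had Prkcq at 6.69, where the next stressed mouse was at 6.28. Control mouse 2 had Cd28 at 5.33 (next 4.22), Cd8b1 at 3.32 (next 2.33) and Sh2d1a at 2.53 (next 2.07). Control mouse 1 had Lat at 4.65, below the next control at 5.31. Control mouse 4 had Cd2 at 3.01, below the next control at 3.50. Control mouse 2 thus accounted for 3 of the 6, all high.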

How the results depend on the processing

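With 10 mice, 0 members were called in limma under any setting except without control mouse 1 (0 to 1 over the mice left out). Over all genes, 41 were called with array weights, 2 with the mean of a gene's probe sets, and 0 to 109 over the mice left out. Without control mouse 1, 2 members were called with trend and robust eBayes (Cd3g and Cd7) and 2 with the mean of probe sets (Cd7 and Icos), 0 with no floor, and 0 to 2 with a further mouse left out. Of 13666 genes, trend and robust eBayes called 169 in place of 109, the mean of probe sets called 129, and a further mouse left out gave 6 to 154. With no floor 89 of 18193 genes were called. The members lower in stressed mice were 28 of 32 with no floor and 9 of 12 with the lowest 60 percent left out, in either comparison, counts that differ because other numbers of members were tested. Over the mice left out, the difference with 10 mice was -0.10 to 0.040 for Cd8a (also 0.023 without control mouse 3), -0.26 to 0.075 for Cd8b1 and -0.15 to 0.021 for Zap70, and without control mouse 1 it was -0.10 to 0.035 for Cd8a. With the mean of a gene's probe sets, Cd8a differed by -0.32 and Zap70 by -0.27 with 10 mice, and by -0.38 and -0.34 without control mouse 1. The other named members kept their direction in all settings run. The causes were not tested. The median member difference was between -0.25 and -0.13 in all settings with 10 mice as the base, and between -0.31 and -0.20 without control mouse 1. Samples of the same number correlated in their deviations at -0.30 to 0.28. The sample of the same number was the best partner for numbers 1 and 2 and not for 3, 4 and 5. These few correlations cannot decide whether the numbers pair the mice. With the replicate block and without control mouse 1, 1 member was called, Cd3g (difference -0.93, limma adjusted p just under the threshold), and not Cd7 (difference -0.39, limma adjusted p = 0.127). Without control mouse 1 the replicate block called 95 of 13666 genes. With 10 mice and the replicate block 0 members and 0 genes were called. The 12 members below the floor were tested only with no floor.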
